A study of Mus musculus with 8 samples.

Results

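The 9 mouse gasdermin genes Gsdma, Gsdma2, Gsdma3, Gsdmc, Gsdmc2, Gsdmc3, Gsdmc4, Gsdmd and Gsdme were followed by their symbols in the RNA of sorted gastric tumor cells, where they are 9 of 27179 entries in the gene table. The cells carried the epithelial surface protein EpCAM and came from antral tumors of 4 Gp130FF; Yap1KO mice and 4 Gp130FF; Yap1WT mice, with 1 library per mouse. All 8 mice carry the Gp130FF mutation, a change in the cytokine receptor subunit gp130 that leads to gastric tumors. Per the study's methods, both groups also carry Tff1:CreERT2 and Yap1fl/fl. In the Yap1KO group tamoxifen activated the Cre recombinase and exon 3 of Yap1 was deleted, only in cells that use the Tff1 promoter, while the Yap1WT group received vehicle. The labels give 3 days after tamoxifen for all 8 mice, so the treatment of the Yap1WT group differs between these sources. The labels and the study's methods give an age of 18 weeks, while the study's results give an older age for these mice. The family was chosen by its log2 fold changes and calls in this same contrast, so those values, with their p-values, describe the genes and support nothing further.

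Gasdermins are proteins with a pore-forming amino-terminal part that is held inactive by the rest of the protein. When a protease cuts between both parts, the freed part inserts into membranes, and the pores let cytokines out and can lyse the cell, a form of death called pyroptosis. Gsdmd is cut by the inflammatory caspases. In mice, Gsdma2 is known from the glandular stomach and Gsdma3 from skin, and the Gsdmc genes are known from intestinal epithelium, where type 2 cytokines raise them.

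The genes lie at 4 places in the mouse genome (GRCm38.p6). On chromosome 11 Gsdma3 (98626349 to 98638801), Gsdma2 (98646743 to 98657964) and Gsdma (98664337 to 98677708) follow each other on the plus strand. On chromosome 15 Gsdmc (63775971 to 63808739), Gsdmc2 (63824328 to 63845193), Gsdmc3 (63857605 to 63878579) and Gsdmc4 (63891140 to 63912319) follow each other on the minus strand. Gsdmd is on the same chromosome (75862144 to 75867408, plus strand) and Gsdme is on chromosome 6 (50207401 to 50263857, minus strand). No exon of another gene overlapped theirs in GENCODE M21, so the unstranded libraries give no antisense doubt of that kind.

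The neighbours in each cluster are close copies, which bears on how reads can be assigned. The first 90 coding bases are shown for this reason, read from GENCODE M21 transcripts (GRCm38), with capitals at each base that differs from Gsdma2.
Gsdma2: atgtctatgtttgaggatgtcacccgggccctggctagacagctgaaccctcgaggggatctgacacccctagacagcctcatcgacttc
Gsdma: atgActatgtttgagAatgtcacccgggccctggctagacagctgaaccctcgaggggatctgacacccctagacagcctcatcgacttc
Gsdma3: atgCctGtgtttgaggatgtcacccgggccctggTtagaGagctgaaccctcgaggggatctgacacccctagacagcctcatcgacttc
Gsdma differed from Gsdma2 at 2 of these bases and Gsdma3 at 4. Over the whole coding sequence, identity with Gsdma2 was 90.9% for Gsdma and 89% for Gsdma3. Of all stretches of 80 bases in the Gsdma2 transcript, the read length given by the study's methods, 4.83% also occurred in another gene, all of them in Gsdma.

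The Gsdmc copies were closer to each other. In these starts, capitals mark each base that differs from Gsdmc2.
Gsdmc2: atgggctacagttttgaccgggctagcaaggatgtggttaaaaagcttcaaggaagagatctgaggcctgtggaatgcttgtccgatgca
Gsdmc3: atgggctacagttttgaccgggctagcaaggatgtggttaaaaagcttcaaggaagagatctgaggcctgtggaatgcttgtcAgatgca
Gsdmc4: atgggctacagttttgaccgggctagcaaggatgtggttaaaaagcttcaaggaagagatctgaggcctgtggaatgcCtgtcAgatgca
Gsdmc: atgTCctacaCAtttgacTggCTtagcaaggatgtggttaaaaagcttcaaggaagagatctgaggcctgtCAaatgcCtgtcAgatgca
Gsdmc3, Gsdmc4 and Gsdmc differed from Gsdmc2 at 1, 2 and 11 of the 90 bases. Coding identity with Gsdmc2 was 97.1% for Gsdmc3, 93.8% for Gsdmc4 and 87% for Gsdmc. Stretches of 80 bases shared with another gene made up 35.1% of the Gsdmc2 transcript, 35.9% of Gsdmc3, 26.6% of Gsdmc4 and 10.4% of Gsdmc, so the split of reads among these copies is uncertain. Gsdma3, Gsdmd and Gsdme shared none.

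Total counts per library ran from 18229945 to 74278015 in Yap1KO and from 27607755 to 77483047 in Yap1WT, and Yap1KO replicate 4 was the shallowest. Yap1, the targeted gene, was at 21.3 to 29.7 CPM in Yap1KO and 64.2 to 78 CPM in Yap1WT. CPM are counts scaled to the size of the library, with TMM factors between libraries. Xist counts exceeded those of the Y-linked gene Ddx3y in 1 Yap1KO and 2 Yap1WT libraries, so both groups hold both sexes. Epithelial markers summed to 8418 to 10760 CPM in Yap1KO and 9175 to 11150 CPM in Yap1WT, led by Krt8 and Krt19. Epcam, the gene of the sorting marker, was at 1520 to 1760 CPM in Yap1KO and 938 to 1040 CPM in Yap1WT, and was the only one of these 5 markers called (log2 fold change 0.76, edgeR adjusted p = 0.00188). Sums of fibroblast markers (Col3a1, Col1a1) were 306 to 1038 CPM in Yap1KO and 81.5 to 675 CPM in Yap1WT. Those of endothelial markers (Plvap, Pecam1) were 456.5 to 910 CPM in Yap1KO and 128 to 479 CPM in Yap1WT. All 5 endothelial markers had log2 fold changes above 0, with a median of 1.39, and Vwf was called higher (1.66, edgeR adjusted p = 0.036). Of the 6 fibroblast markers, 5 had log2 fold changes above 0, with a median of 1, and none was called.

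Of the 9 genes, 7 passed the filter on low counts (above 0.5 CPM in at least 6 libraries), and Gsdma3 and Gsdmc did not. Among the 7, edgeR's quasi-likelihood test called 1 lower in Yap1KO, Gsdma2, and 0 higher, at a Benjamini-Hochberg adjusted p under 0.05 over all 13495 tested genes. Over all tested genes, 5.87% were called in either direction, 2.34% lower and 3.53% higher. Without adjustment the counts at p under 0.05 were the same, 1 lower and 0 higher, and limma-voom and DESeq2 each called 1 lower and 0 higher. The log2 fold change was below 0 in 6 of the 7 genes, with a median of -1.43 against -0.01 over all tested genes.

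**Figure D1:**
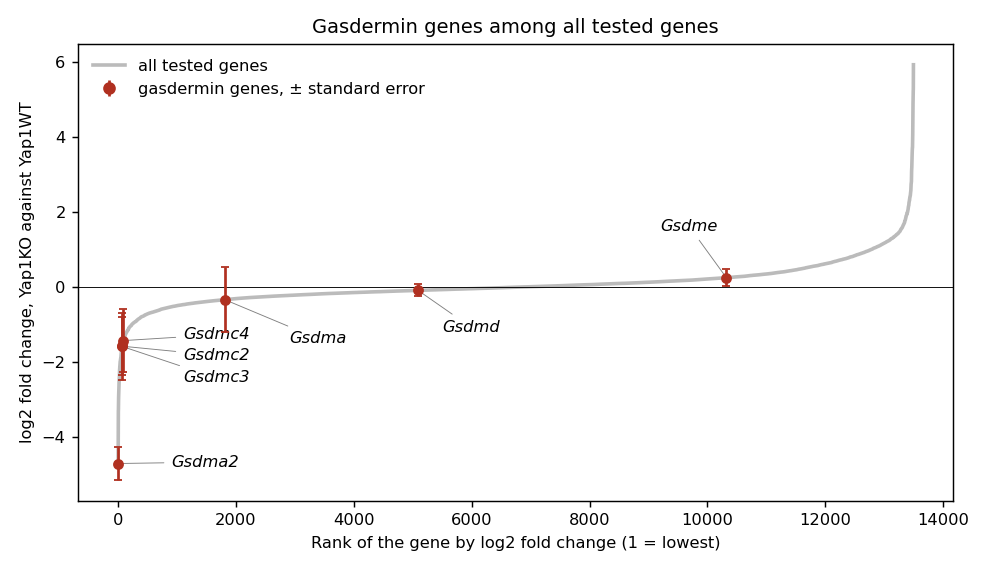
The log2 fold change of Yap1KO against Yap1WT (vertical axis) is plotted against the rank of each of the 13495 tested genes (horizontal axis, lowest first), with the 7 gasdermin genes as red points ± standard error. Gsdma2 sits at rank 1 with -4.72, the 3 Gsdmc copies near -1.5, and Gsdma, Gsdmd and Gsdme between -0.34 and 0.24.

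Gsdma2 (gene ID 76758) fell to a few CPM in every Yap1KO mouse. It was at 3.83, 2.65, 7.06 and 6.28 CPM in Yap1KO replicates 1 to 4, against 132, 67.8, 226 and 94.6 CPM in Yap1WT replicates 1 to 4. The groups did not overlap: the highest Yap1KO library, replicate 3, was far below the lowest Yap1WT library, replicate 2. The means were 4.96 ± 2.06 CPM in Yap1KO and 130 ± 69.2 CPM in Yap1WT (SD, n = 4 each). The fitted log2 fold change was -4.72 (SE 0.44, edgeR adjusted p = 0.000295), which is 26.3-fold lower.

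Gsdma2 had the lowest log2 fold change of all 13495 tested genes, while by p it was at place 32. It was also the lowest of the 11069 genes whose mean reached 5 CPM in either group, a level it reached in Yap1WT alone. Both ranks by fold change rest on the values by which the family was chosen, so they only describe the gene. Gsdma2 was read from 84 to 547 counts in the Yap1KO libraries and from 2641 to 15613 in the Yap1WT libraries, so it was detected in every library. The labels give each mouse a number but name no series. The numbers were split here at 440 into 2 series (replicates 1 and 2 have numbers below 440, replicates 3 and 4 above). In both series Gsdma2 was lower in Yap1KO. Below 440 the means were 3.24 CPM in Yap1KO and 100.1 CPM in Yap1WT, a 30.9-fold difference. Above 440 they were 6.67 CPM in Yap1KO and 160.3 CPM in Yap1WT, a 24-fold difference. In bulk RNA, fewer cells that express a gene and less of its RNA per cell cannot be told apart.

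**Figure D2:**
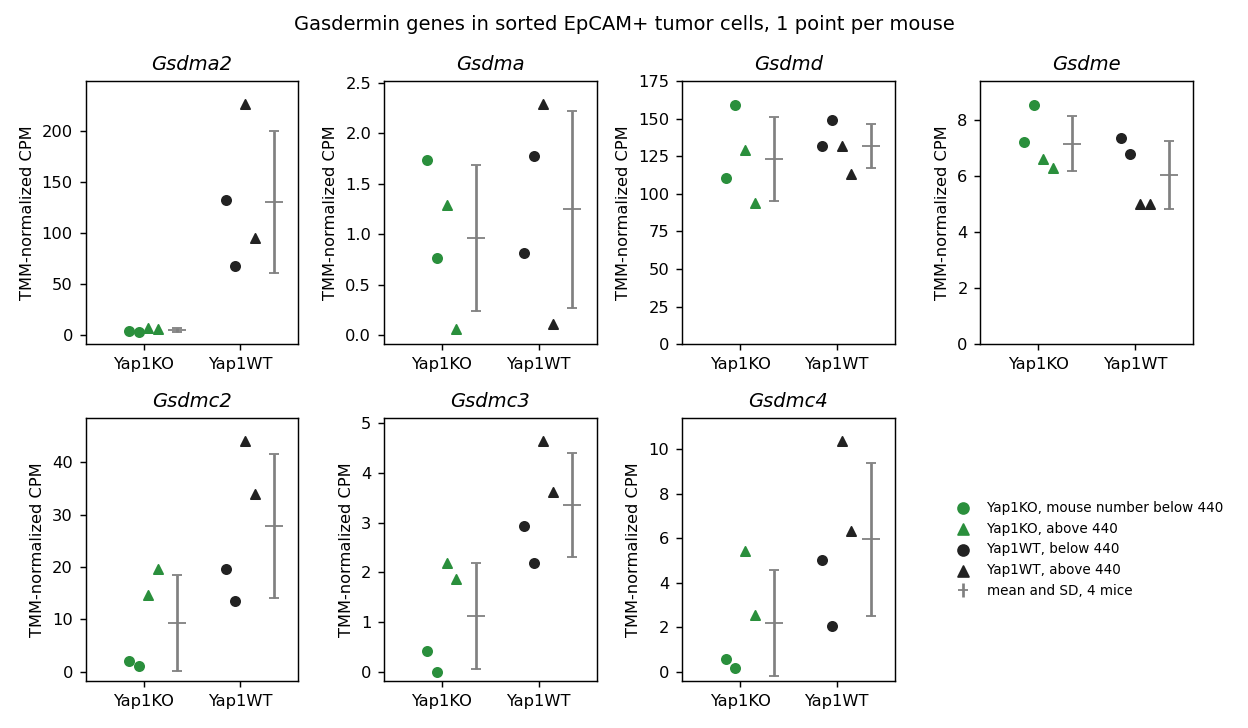
Each panel gives TMM-normalized CPM (vertical axis, its own scale) of 1 gasdermin gene in 4 Yap1KO libraries (green, left) and 4 Yap1WT libraries (black, right), circles for mouse numbers below 440 and triangles for those above, with the mean and SD in grey. Gsdma2 lies between 2.65 and 7.06 CPM in Yap1KO and between 67.8 and 226 CPM in Yap1WT, while Gsdmd and Gsdme overlap between the groups.

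Gsdma2 is a gene of the gastric epithelium, so 5 markers of gastric mucous cells, listed as foveolar, were set beside it. The summed level of Muc5ac, Gkn1, Gkn2, Tff1 and Tff2 was 75310 to 102300 CPM in Yap1KO and 70630 to 116600 CPM in Yap1WT, and the ranges overlapped. None of the 5 was called, and their median log2 fold change was -0.62. Tff2 made up the largest part of the sum, at 53600 to 76100 CPM in Yap1KO and 33500 to 56500 CPM in Yap1WT. The sum thus weighs Tff2 most and is not a measure of surface cells alone. Tff2 was the only one with a log2 fold change above 0, while Muc5ac, Gkn2 and Tff1 were at -0.67, -0.95 and -0.53. The most abundant were Tff2, a peptide of mucous cells, with a log2 fold change of 0.50 (adjusted p = 0.192), and Gkn1, a secreted protein of surface cells, with -0.62 (adjusted p = 0.172). None of these markers was at 0, and their part in the Gsdma2 difference was not tested.

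The other genes of the cluster on chromosome 11 were at low levels. Gsdma was at 1.74, 0.758, 1.29 and 0.0546 CPM in Yap1KO replicates 1 to 4, against 0.812, 1.77, 2.29 and 0.107 CPM in Yap1WT replicates 1 to 4. The lowest library of each group was replicate 4, the shallowest, and the groups overlapped. Its log2 fold change was -0.34 (SE 0.87, edgeR adjusted p = 0.872), and the sign turned without Yap1WT replicate 3 (0.13) or without Yap1KO replicate 4 (0.01). Gsdma3 had 0, 1, 1 and 0 counts in Yap1KO replicates 1 to 4, against 2, 1, 9 and 6 counts in Yap1WT replicates 1 to 4. An exact permutation test on log2(CPM + 0.5), two-sided, gave p = 0.0857 for Gsdma3, where 4 against 4 libraries cannot go below 0.0286. A count of 0 allows up to 3 counts, which is 0.0387 to 0.164 CPM in these libraries and covers counting error only.

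Gsdmc2, Gsdmc3 and Gsdmc4 had lower means in Yap1KO, but none passed the test, and the 2 Yap1KO mice with numbers below 440 were lowest in all 3 genes. Gsdmc2 was at 2.09, 1.14, 14.7 and 19.6 CPM in Yap1KO replicates 1 to 4, against 19.7, 13.5, 44.1 and 33.9 CPM in Yap1WT replicates 1 to 4. The groups overlapped, since Yap1KO replicates 3 and 4 were above Yap1WT replicate 2. Its log2 fold change was -1.58 (SE 0.77, edgeR adjusted p = 0.285).

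Gsdmc3 was at 0.425, 0, 2.18 and 1.86 CPM in Yap1KO replicates 1 to 4, against 2.94, 2.19, 4.65 and 3.62 CPM in Yap1WT replicates 1 to 4. The groups did not overlap, but the highest Yap1KO library and the lowest Yap1WT library were almost level, and 6.01% of all tested genes had groups apart in this direction. Its log2 fold change was -1.59 (SE 0.89, edgeR adjusted p = 0.363). Gsdmc4 was at 0.592, 0.158, 5.41 and 2.57 CPM in Yap1KO replicates 1 to 4, against 5.002, 2.07, 10.4 and 6.34 CPM in Yap1WT replicates 1 to 4. The groups overlapped, and its log2 fold change was -1.43 (SE 0.85, edgeR adjusted p = 0.393), or -2.50 without Yap1KO replicate 3 (adjusted p = 0.147). By limma-voom the values were -3.13 for Gsdmc3 and -2.52 for Gsdmc4, at adjusted p of 0.13 and 0.2.

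In each group, both libraries numbered above 440 were higher than both below 440 in these 3 genes, a difference that was not tested. For Gsdmc2 the means below 440 were 1.61 CPM in Yap1KO and 16.6 CPM in Yap1WT, a 10.3-fold difference. Above 440 they were 17.1 CPM in Yap1KO and 39 CPM in Yap1WT, a 2.28-fold difference. Gsdmc3 was 12.1-fold lower in Yap1KO below 440 and 2.05-fold lower above, and Gsdmc4 was 9.44-fold lower below and 2.1-fold lower above. Within each series and for each of the 3 genes, both Yap1KO libraries were below both Yap1WT libraries. The share of all tested genes with this pattern was not counted, and so few libraries separate easily. The 3 copies also share stretches of sequence, so they are not separate observations. With the series as a block, Gsdmc2 had a log2 fold change of -2.21 (edgeR adjusted p = 0.0146). Gsdmc3, at -2.16 (edgeR adjusted p = 0.134), and Gsdmc4, at -2.04 (edgeR adjusted p = 0.0739), were not called. This block called 451 of all tested genes lower, in place of 316 without it.

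The difference of the Yap1KO effect between the series was fitted as an interaction, chosen after seeing the data. It was 2.15 (SE 0.46) on the log2 scale for Gsdmc2, 2.44 (SE 1.35) for Gsdmc3 and 2.12 (SE 0.98) for Gsdmc4. The adjusted p over all genes was 1 for each of the 3 by edgeR, so a difference between the series was not shown, and the unadjusted p for Gsdmc2 was 0.00148. Over all tested genes 0 passed at the adjusted p and 235, or 1.74%, at an unadjusted p under 0.05. The labels name no such series, and what the mouse numbers stand for is not stated.

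**Figure D3:**
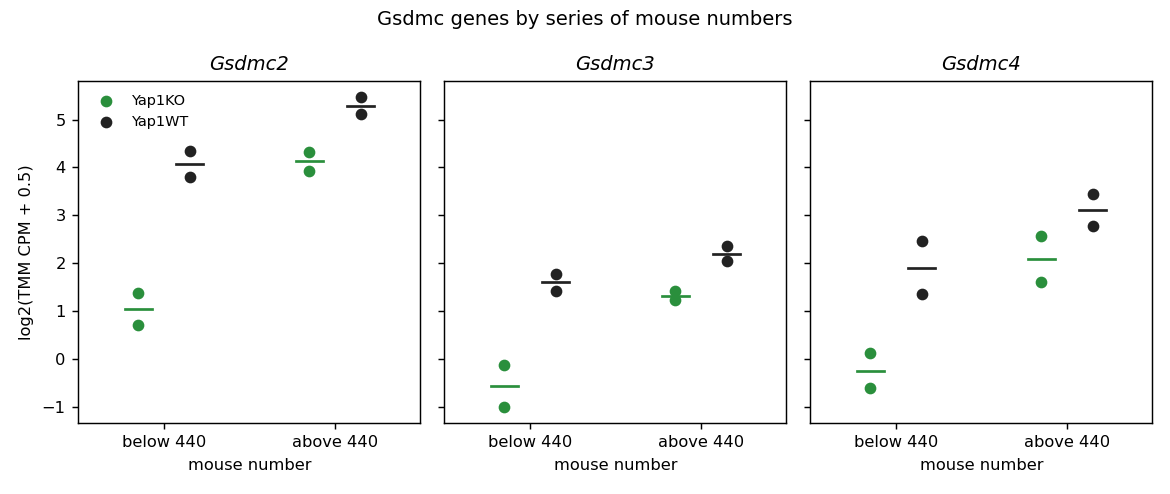
The level of Gsdmc2, Gsdmc3 and Gsdmc4 as log2(TMM CPM + 0.5) (vertical axis) is plotted for mice numbered below and above 440 (horizontal axis), with Yap1KO in green on the left of each pair, Yap1WT in black on the right, 1 point per library and a line at the mean. Yap1KO lies below Yap1WT in every pair, and in Gsdmc2 the gap is 10.3-fold below 440 and 2.28-fold above.

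The foveolar mucin gene Muc5ac, named here after its values were seen, was at 120, 16.7, 464 and 380 CPM in Yap1KO replicates 1 to 4, against 193, 246, 490 and 626 CPM in Yap1WT replicates 1 to 4. It too was lowest in the 2 Yap1KO mice numbered below 440, and its log2 fold change was -0.67 (edgeR adjusted p = 0.682). Of the markers listed with it above, Gkn2 was also lowest in these 2 mice, while Gkn1, Tff1 and Tff2 were not. Tff2 was highest in Yap1KO replicate 2, at 76100 CPM. Of 9 intestinal markers, Car1 was at 0 in every library, and the sum of the 9 was 524 to 819 CPM in Yap1KO and 421 to 658 CPM in Yap1WT, led by Vil1 and Alpi. Vil1 alone was at 418 to 554 CPM in Yap1KO and 388 to 432 CPM in Yap1WT. Of the 5 intestinal markers tested, 4 had log2 fold changes above 0, with a median of 1, and none was called. The part of either set in the Gsdmc values was not tested.

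Gsdmc itself had 0, 7, 4 and 0 counts in Yap1KO replicates 1 to 4, against 9, 2, 23 and 0 counts in Yap1WT replicates 1 to 4. The groups overlapped, and the exact permutation test, two-sided, gave p = 0.629. Counts of Gsdmc3 per count of Gsdmc2 were 0.204, 0, 0.148 and 0.095 in Yap1KO replicates 1 to 4, and 0.149, 0.162, 0.105 and 0.107 in Yap1WT replicates 1 to 4. Those of Gsdmc4 per count of Gsdmc2 were 0.131 to 0.368 in Yap1KO and 0.153 to 0.254 in Yap1WT, so Gsdmc2 had more counts than either copy in every library.

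Gsdmd, the executioner of inflammasome signalling, was abundant in both groups, at 111, 159, 129 and 94.1 CPM in Yap1KO replicates 1 to 4, against 132, 149, 132 and 113 CPM in Yap1WT replicates 1 to 4. The lowest and the highest library were both Yap1KO, and the groups overlapped. The means were 123 ± 27.8 CPM in Yap1KO and 132 ± 14.7 CPM in Yap1WT (SD, n = 4 each). Its log2 fold change was -0.09 (SE 0.16, edgeR adjusted p = 0.797), and 2 standard errors around it ran from -0.41 to 0.22.

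Gsdme was at 7.19, 8.52, 6.61 and 6.28 CPM in Yap1KO replicates 1 to 4, against 7.35, 6.78, 4.99 and 5.01 CPM in Yap1WT replicates 1 to 4. The groups overlapped. For Gsdme the log2 fold change was 0.24 (SE 0.22, edgeR adjusted p = 0.597), and 2 standard errors around it ran from -0.20 to 0.69. Pjvk, a relative of the family outside the 9 genes, had 0 counts in all 8 libraries.

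The make-up of the family differed between the groups. Gsdma2 held 1.54% to 4.8% of all gasdermin counts in Yap1KO libraries and 27.9% to 53.2% in Yap1WT libraries. Gsdmd held 72% to 92.2% in Yap1KO and 31.1% to 61.3% in Yap1WT. Shares add up to the whole, so a lower share of Gsdma2 raises the others. Gsdmd itself was not called (log2 fold change -0.09, edgeR adjusted p = 0.797). The summed level of the 9 genes was 127, 173, 166 and 131 CPM in Yap1KO replicates 1 to 4, against 244 to 425 CPM in the 4 Yap1WT libraries, and the groups did not overlap. Without Gsdma2 the sums were 123 to 170 CPM in Yap1KO and 163 to 199 CPM in Yap1WT, and these ranges overlapped.

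**Figure D4:**
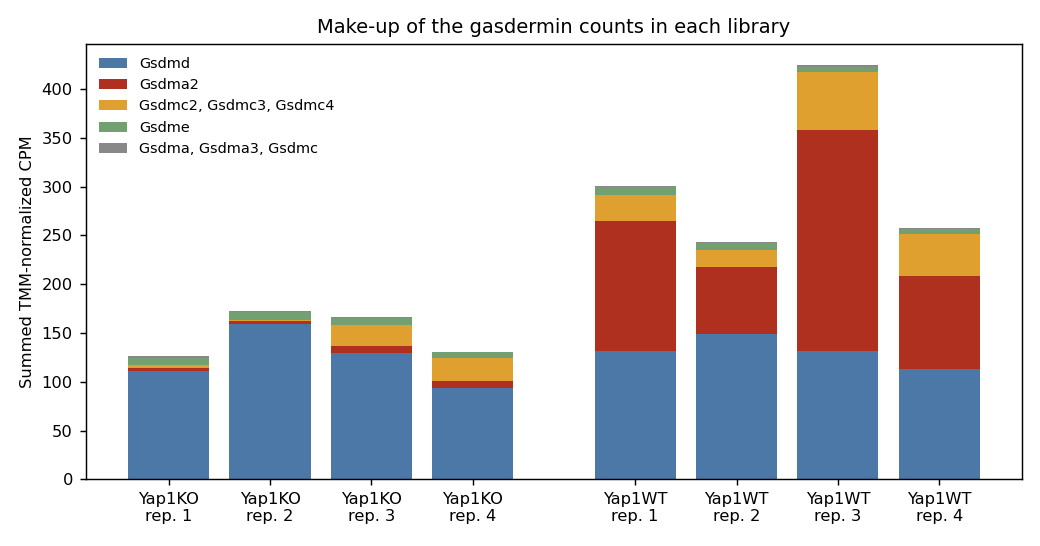
Stacked bars give the summed TMM-normalized CPM of the 9 gasdermin genes (vertical axis) in each library (horizontal axis, Yap1KO on the left and Yap1WT on the right). The red Gsdma2 segment is 2.65 to 7.06 CPM in Yap1KO and 67.8 to 226 CPM in Yap1WT, while the blue Gsdmd segment overlaps between the groups.

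Levels were compared between genes per kilobase of exon. In Yap1KO, Gsdmd was highest at 65.3 ± 14.7 CPM per kilobase, followed by Gsdmc2 at 4.05 ± 3.97 and Gsdma2 at 2.96 ± 1.23. Gsdmc4 came next at 1.05 ± 1.15, then Gsdme at 0.97 ± 0.134, Gsdmc3 at 0.479 ± 0.458 and Gsdma at 0.352 ± 0.266 (SD, n = 4). In Yap1WT, Gsdma2 led at 77.8 ± 41.3 CPM per kilobase, followed by Gsdmd at 69.7 ± 7.79 and Gsdmc2 at 12 ± 5.97. Gsdmc4 came next at 2.85 ± 1.65, then Gsdmc3 at 1.44 ± 0.448, Gsdme at 0.818 ± 0.164 and Gsdma at 0.456 ± 0.357 (SD, n = 4). In Yap1KO only Gsdmd stood apart, and the ranges of all other neighbours in this order overlapped. In Yap1WT the ranges of Gsdma2 and Gsdmd overlapped, as did those of neighbours from Gsdmc4 down to Gsdma, while Gsdmc2 was apart from both sides. The place of Gsdme depends on the length used: its exons span 7375 bases together but its transcript 2502, and in the deposited log2 values it came after Gsdmd alone in Yap1KO, at a mean of 1.69, and after Gsdmd, Gsdma2 and Gsdmc2 in Yap1WT, at 1.57. In these log2 values Gsdmd, at 6.22, stood just above Gsdma2, at 6.15, in Yap1WT, and in Yap1KO Gsdma2, at 1.37, stood above Gsdmc2, at 1.06.

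The genes whose log2 levels ran most like Gsdma2 over the 8 libraries were Clca1, a secreted protein of mucous cells, Mogat1, an enzyme of triglyceride synthesis, and Slc5a5, the sodium iodide symporter. Likeness was the root mean square difference of log2(CPM + 0.5) after centring each gene, which was 0.71 for Clca1, 0.782 for Mogat1 and 0.837 for Slc5a5, against a median of 2.343 over all tested genes. Their log2 fold changes were -4.47 for Clca1, -3.50 for Mogat1 and -2.90 for Slc5a5. The measure was not scaled, so for Gsdma2 it mostly follows the size of the group difference, by which the family was chosen. It does not show that these genes vary together between mice of a group. The nearest to Gsdmc2 were Pla2g4c, a phospholipase, then Gsdmc4 and Gsdmc3, at 0.459, 0.526 and 0.582. For Gsdmc3 they were Psca, a surface antigen of gastric epithelium, at 0.206, then Gsdmc4 and Ccnb1-ps, and for Gsdmc4 they were Gsdmc3 at 0.387, Pla2g4c and Psca. The nearest were Chchd2, Srsf6 and Hsd17b10 for Gsdmd, 4930526I15Rik, Zswim8 and Ergic3 for Gsdme, and Khdc3, 4933416M07Rik and Gm14440 for Gsdma.

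The other genes of the pathway were taken from 7 lists of 68 genes in all, of which 55 were tested. Of these 55, 8 were called higher, 3 lower and 44 not called, with a median log2 fold change of 0.01. The called shares over all genes given above are the background for these counts.

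Of the proteases that cleave gasdermins, 5 of 9 were tested and none was called. Casp8, which cleaves human GSDMC and can cleave Gsdmd, was at 92.8 ± 9.41 CPM in Yap1KO and 77.1 ± 6.18 CPM in Yap1WT (SD, n = 4 each, edgeR adjusted p = 0.172). Elane and Ctsg, proteases of neutrophils, were at 0 in every library.

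Of the inflammasome sensors and adaptors, 9 of 14 were tested, 2 were called lower and 0 higher. Nek7, a kinase that binds the sensor Nlrp3, averaged 99.2 ± 5.06 CPM in Yap1KO and 159 ± 13.9 CPM in Yap1WT (SD, n = 4 each), with a log2 fold change of -0.68 (SE 0.09, adjusted p = 0.00235). Pycard, the adaptor ASC that joins sensors to Casp1, averaged 60.1 ± 15.4 CPM in Yap1KO and 105 ± 20.6 CPM in Yap1WT (SD, n = 4 each), with a log2 fold change of -0.81 (SE 0.19, adjusted p = 0.0376). The call of Pycard was lost without any 1 of Yap1WT replicates 1, 2 and 3 or of Yap1KO replicates 1, 3 and 4, where its adjusted p was 0.0808, 0.0913, 0.104, 0.0986, 0.084 and 0.0998.

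Of the released cytokines and the genes of membrane rupture, 5 of 7 were tested, 1 was called lower and 0 higher. Il18, a cytokine that leaves cells through gasdermin pores, averaged 37.3 ± 11.3 CPM in Yap1KO and 90.9 ± 11.1 CPM in Yap1WT (SD, n = 4 each), and the groups did not overlap. Its log2 fold change was -1.29 (SE 0.19, adjusted p = 0.00374). Of the 12 genes of pore repair and gasdermin modification, all 12 were tested and none was called. The most abundant were Pdcd6ip, at 295 ± 33.9 CPM in Yap1KO and 335 ± 32.2 CPM in Yap1WT, and Chmp4b, at 293 ± 14.2 CPM in Yap1KO and 254 ± 22.7 CPM in Yap1WT (SD, n = 4 each), both of the membrane repair machinery.

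**Figure D5:**
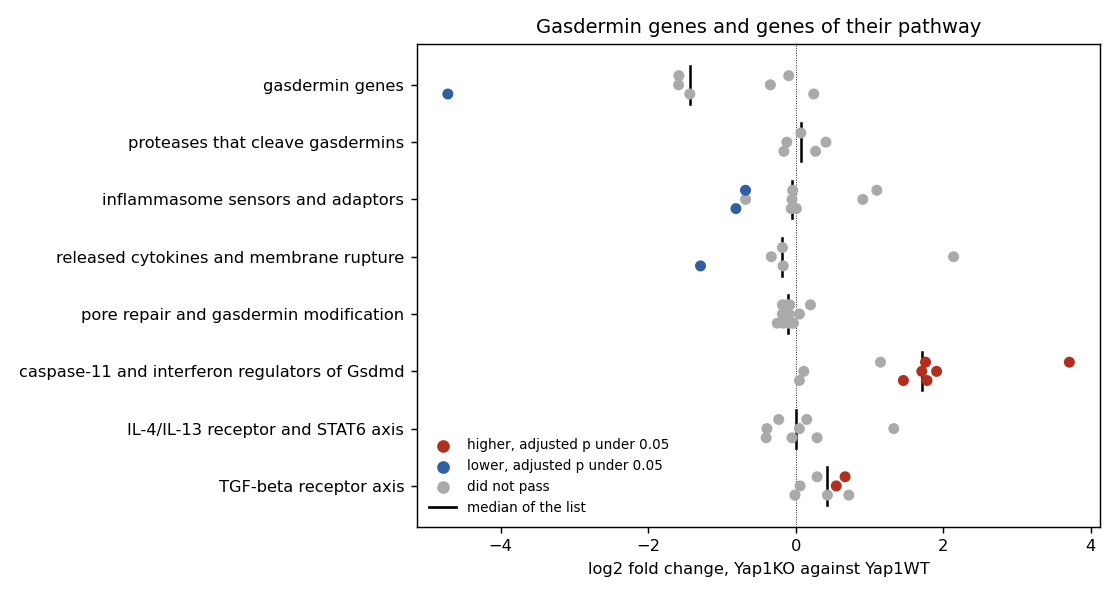
The log2 fold change of Yap1KO against Yap1WT (horizontal axis) is given for each tested gene of the gasdermin family and of the 7 pathway lists (vertical axis), red for genes called higher, blue for genes called lower and grey for the rest, with a black line at the median of each list. The interferon list has its median at 1.71 with 6 genes called higher, while the protease and pore repair lists hold no called gene.

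Of the caspase-11 and interferon regulators of Gsdmd, 9 of 10 were tested, 6 were called higher and 0 lower, with a median log2 fold change of 1.71. Gbp3, a guanylate-binding protein induced by interferon, averaged 33.7 ± 10.9 CPM in Yap1KO and 2.57 ± 0.588 CPM in Yap1WT (SD, n = 4 each), with a log2 fold change of 3.71 (SE 0.29, adjusted p = 0.000174). The interferon signalling genes Irf9 and Stat2 had log2 fold changes of 1.46 and 1.71, with adjusted p of 0.000639 and 0.00156. Gbp7 and Gbp2 were also called, and the call of Gbp2 was lost, at adjusted p = 0.0526 to 0.0656, when any 1 of 4 libraries was left out (replicates 2 and 4 of Yap1WT, replicates 1 and 4 of Yap1KO). Irf2, known from mouse cells to drive Gsdmd transcription, was at 55 ± 3.04 CPM in Yap1KO and 50.8 ± 5.74 CPM in Yap1WT (SD, n = 4 each, adjusted p = 0.605). Irf9, Stat2 and Nek7 are shown in the study itself for these samples, so they are not independent evidence of their list's direction.

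Of the list for the IL-4 and IL-13 axis, known to raise Gsdmc genes in mouse intestine, which holds receptor chains, kinases, Stat6 and the epithelial genes Retnlb, Dclk1 and Il25, 8 of 9 were tested and none was called. Il4ra, a receptor chain, was at 260.4 ± 26.1 CPM in Yap1KO and 213 ± 38.11 CPM in Yap1WT, and the kinase Jak1 at 189 ± 28.5 CPM in Yap1KO and 170.0 ± 9.91 CPM in Yap1WT (SD, n = 4 each). Of the TGF-beta receptor axis, all 7 genes were tested, 2 were called higher and 0 lower. Smad3, which carries the signal to the nucleus, had a log2 fold change of 0.67 (SE 0.15, adjusted p = 0.0329), and the receptor Tgfbr2 one of 0.55 (SE 0.13, adjusted p = 0.0417). All 5 endothelial markers and 5 of 6 fibroblast markers had log2 fold changes above 0. The part of either set in the fold changes of Smad3 and Tgfbr2 was not tested. On leaving out 1 library at a time, Smad3 kept its call only without Yap1KO replicate 2 or 3, with adjusted p of 0.0615 to 0.107 in the other cases, and Tgfbr2 only without Yap1WT replicate 1 or Yap1KO replicate 2, with 0.0689 to 0.138.

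Of the protein-coding genes beside the cluster on chromosome 11, Ormdl3 and Psmd3 were not called. Lrrc3c, the nearest on the side of Gsdma3, was at 0 CPM in both groups. Ormdl3, the next on that side, was at 30.8 CPM in Yap1KO and 24.4 CPM in Yap1WT (log2 fold change 0.33, edgeR adjusted p = 0.0879). Psmd3, on the side of Gsdma, was at 139 CPM in Yap1KO and 132 CPM in Yap1WT (log2 fold change 0.08, edgeR adjusted p = 0.756). Of the promoter sequences of RefSeq (GRCm38.p6), those of Gsdme, Gsdma3 and Gsdmc3 matched members, and Gsdma2 is not among them. Their 250 bases before the start were searched on both strands for GGAATG (the core bound by TEAD factors, the DNA-binding partners of Yap1), TTC and GAA with 4 bases between them (a Stat6 motif), the same with 3 bases between them (a general STAT motif), and GAAA and GAAA with 2 bases between them (an interferon response motif). The only match was 1 of the interferon response motif before Gsdma3. For Gsdme the searched window, 50261770 to 50262019, lay inside the gene span given above. The bases before the outer end of that span were not searched. In the order given, the motifs occurred in 12.6%, 5.85%, 7.02% and 2.98% of 32851 such windows.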

How the data were processed

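Bulk RNA of sorted EpCAM+ tumor cells was measured in 8 libraries. Per the study's methods and the submitters' processing notes, the authors aligned paired-end reads to GRCm38/mm10 with Subread and made the deposited counts per gene with featureCounts against RefSeq genes, without normalization. The kit, TruSeq RNA v2, does not mark strand. The authors made the deposited log2 values with limma's voom and quantile normalization; they are log2 RPKM, and how they were scaled to length is not stated. Of the columns of the count table, 6 matched no sample and were not used.

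Entries without a name in the table or in RefSeq were left out (1277, 0.552% to 0.789% of counts), as were 762 pseudogenes. Library totals were taken over all named entries. Genes above 0.5 CPM in at least 6 libraries were tested with edgeR (version 4.0.16 in R 4.3.3) by its quasi-likelihood F test on the group, with TMM scaling and Benjamini-Hochberg adjustment at 0.05, after tests on simulated data. Standard errors were derived from each fold change and its F statistic. Lengths and sequences come from GENCODE M21, since the files hold no gene length. Alternatives were limma-voom (limma 3.58.1), DESeq2 1.42.0, other scaling and filters, blocks, a sex term, limma-trend on the log2 values and leaving out each library. An interaction of group and mouse number series, and other library totals, were added after seeing the data.

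The members and gene lists were chosen with earlier results of these data known. The text names all 9 genes, Pjvk, Yap1, up to 4 called genes per direction of each pathway list by smallest p (otherwise the 2 most abundant), the 2 most abundant markers of each list, and the 3 genes of nearest pattern. Muc5ac, Gkn2, Tff1, Epcam, Vwf, Cd68, Lrrc3c, Retnlb, Dclk1, Il25, Irf2, Gbp2, Gbp7, Elane, Ctsg and Car1 were added after their values were seen. So were the named neighbours of the family, such as Ormdl3 and Psmd3. The results of 2 genes that this rule takes are not reported here. Python 3.11.15, Biopython 1.88 and matplotlib 3.10.9 drew sequences and plots.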

Additional observations from a re-analysis of the deposited data

How the results depend on the processing

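Gsdma2 was called lower under all 19 alternatives, with log2 fold changes of -4.97 to -4.31 on leaving out 1 library and -4.78 to -4.70 otherwise, and adjusted p from 1.23e-19 to 0.00254. No alternative called a gasdermin gene higher (0 to 0 on leaving out 1 library), and 1 to 1 were called lower on leaving out 1 library. The fold change of Gsdma on the log2 scale ran from -0.77 to 0.13 on leaving out 1 library, and turned to 0.13 without Yap1WT replicate 3 and to 0.01 without Yap1KO replicate 4, and that of Gsdmd ran from -0.24 to 0.01, turning without Yap1KO replicate 4. With DESeq2, 17 pathway genes in place of 11 and 1445 of all genes in place of 792 were called. On leaving out 1 library these counts were 7 to 12 and 397 to 761, lowest for all genes without Yap1WT replicate 3. A block for the mouse number series gave 2 gasdermin genes called lower, beside 451 of all genes lower and 598 higher. For Gsdmc2, Gsdmc3 and Gsdmc4 the log2 fold change ran from -2.19 to -1.21, -2.21 to -1.18 and -2.50 to -1.02 on leaving out 1 library, and limma-trend gave -2.39, -3.35 and -2.90. Of 7 places in the order of mean levels over all 8 libraries, 4 were kept in the deposited log2 values. The exact permutation p of Gsdmc was 0.657 with a pseudocount of 0.1 CPM. Library totals over the tested genes alone, which were used in a first run, gave 13508 tested genes and the same counts of 476 higher and 316 lower.

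With the replicate block, 3 gasdermin genes were called lower and 1307 of all genes. The log2 fold change was then -2.22 for Gsdmc2 (edgeR adjusted p = 0.0289) and -2.11 for Gsdmc4 (edgeR adjusted p = 0.0464). The labels tie nothing but a number to the replicates, and the correlations of same-numbered libraries were 0.04, 0.35, 0.05 and 0.15, with 2 of 4 best matched to their own number, so the numbers were not taken as pairs. Without the filter on low counts, the fit gave -2.84 (SE 1.61, edgeR adjusted p = 0.436) for Gsdma3 and -0.87 (SE 1.62, edgeR adjusted p = 0.841) for Gsdmc.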

Other observations

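At the other places of the family, 2 neighbouring genes were called. Myc, Cyrib, Asap1, Zc3h3, Naprt, Npy, Mpp6 and Cycs were tested there and not called. Over all tested genes, 5.87% were called. Osbpl3, beside Gsdme, was at 44 CPM in Yap1KO and 74.8 CPM in Yap1WT (log2 fold change -0.76, edgeR adjusted p = 0.00839). Mroh6, beside Gsdmd, was at 2.63 CPM in Yap1KO and 8.52 CPM in Yap1WT (log2 fold change -1.70, edgeR adjusted p = 0.0225). Of the immune markers, those of T and NK cells summed to 0 to 0.41 CPM in Yap1KO and 0 to 0.258 CPM in Yap1WT, led by Cd4 and Cd3g, with Cd8a, Ncr1 and Klrb1c at 0 in every library. Macrophage and dendritic markers summed to 40.1 to 69.8 CPM in Yap1KO and 46.7 to 89.7 CPM in Yap1WT, led by Cd14 and Ptprc, and Cd68 was the only one called (log2 fold change 1.06, edgeR adjusted p = 0.0468, higher in Yap1KO). Neutrophil and mast cell markers summed to 34.3 to 44.6 CPM in Yap1KO and 27.1 to 34.1 CPM in Yap1WT, nearly all of it Kit, with S100a9 next. Those of B and plasma cells summed to 0 to 2.34 CPM in Yap1KO and 0 to 1.37 CPM in Yap1WT, led by Jchain and Cd79a. Squamous forestomach markers summed to 26.2 to 76.1 CPM in Yap1KO and 27 to 98.9 CPM in Yap1WT, led by Krt5 and Krt13.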
